A study of Mus musculus with 6 samples.

Results

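Ribosomal protein genes of the mouse fall into 2 classes: those of the cytosolic ribosome, which translates nuclear-encoded mRNAs, and those of the mitochondrial ribosome, which translates the few proteins encoded by mitochondrial DNA. Genes with a row of their own were chosen by symbol, Rpl, Rplp and Rps for the cytosolic class and Mrpl and Mrps for the mitochondrial class, leaving out the 4 measured Rps6k genes, which encode kinases. This gave 106 of 9490 genes tested: 40 cytosolic (22 large and 18 small subunit) and 66 mitochondrial (43 large and 23 small subunit). RNA came from cancer stem-like cells grown in serum-free medium with EGF and FGF2, taken from prostates of TRAMP mice, a transgenic strain in which a viral oncogene under a prostate-specific promoter drives prostate cancer. There were 3 TNE arrays, from mice affected by neuroendocrine tumours (age not given in the labels), and 3 TPIN arrays, from mice aged 10 to 11 weeks with prostate intraepithelial neoplasia. All 6 samples carry the transgene, and no sample of normal prostate was among them.

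Each cytosolic ribosome joins a small subunit, which holds the mRNA and decodes it, to a large subunit, which forms peptide bonds. Cytosolic ribosomal proteins are made in near-equal amounts, and their mRNAs are known for a pyrimidine tract at the very start that puts their translation under mTOR control. Mitochondrial ribosomal proteins are encoded in the nucleus and imported, and many have no counterpart in the bacterial ribosome from which the organelle's ribosome descends. Many ribosomal protein genes also have processed pseudogenes, so a row can read more than 1 locus. In the RefSeq gene table, 90 protein-coding symbols matched the cytosolic pattern, of which 39 had a row of their own, 35 had a row shared with other symbols and 16 are not analysed here. The numbers were 66, 0 and 12 of 78 for the mitochondrial pattern.

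There are 4 symbols that match the pattern without being subunits of the ribosome its name points to. Rps19bp1 encodes a protein that binds RPS19, Rps19-ps3 is named as a pseudogene, Rpl7l1 encodes a nucleolar relative of RPL7, and the Mrps36 product belongs to the 2-oxoglutarate dehydrogenase complex. They are kept in the counts, as the pattern includes them, and none of the 4 passed the test.

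Promoter windows (build GRCm38.p6) were available for 31 of the 40 cytosolic and 58 of the 66 mitochondrial genes. The pyrimidine tract was read as a C followed by at least 5 further C or T bases, starting within 10 bases of the annotated start. A run with C or T just before that C was not counted, so the shares can miss tracts. By this rule it was present in 7 cytosolic (22.6%) and 14 mitochondrial windows (24.1%), against 13.8% of 27025 promoters. CCGGAAG, the core bound by ETS factors such as GABPA, stood on either strand of the 300-base windows in 12 cytosolic (38.7%) and 20 mitochondrial genes (34.5%), against 9.12% of all promoters. AAGATGGC, the YY1 element, was held by 1 cytosolic (3.23%) and 11 mitochondrial genes (19.0%), against 2.88%. TATAAA, the TATA box, was held by 1 cytosolic (3.23%) and 3 mitochondrial genes (5.17%), against 14.2%. Matches to these letters are descriptions, not sites shown to be bound. The start regions below belong to Mrps22 and Mrps33, which rose in TNE, and to cytosolic genes whose levels split the TPIN arrays, 60 bases before to 20 after the annotated start. Capitals mark the pyrimidine tract or CCGGAAG where present. Whether the rows of these genes read the loci printed or pseudogene copies was not tested.
Mrps22, chr9:98601660-98601739, minus strand: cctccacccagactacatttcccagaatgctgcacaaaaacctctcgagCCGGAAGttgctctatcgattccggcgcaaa
Mrps33, chr6:39810917-39810996, minus strand: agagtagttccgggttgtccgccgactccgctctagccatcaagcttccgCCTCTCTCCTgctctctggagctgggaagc
Rps18, chr17:33955646-33955725, minus strand: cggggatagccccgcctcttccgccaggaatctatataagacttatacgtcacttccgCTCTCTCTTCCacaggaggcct
Rpl9, chr5:65391412-65391491, minus strand: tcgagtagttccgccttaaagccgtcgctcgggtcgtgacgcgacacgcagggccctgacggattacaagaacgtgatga
Rps15, chr10:80292371-80292450, plus strand: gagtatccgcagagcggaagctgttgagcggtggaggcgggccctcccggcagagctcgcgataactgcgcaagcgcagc
The third called gene, Mrps35, has no entry in the promoter table.

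Before the comparison, the arrays have to be described, since they did not split by group in the cytosolic class. For the cytosolic genes, TPIN replicate 3 resembled the TNE arrays more than the other TPIN arrays. Its median absolute log2 difference over the 40 genes was 0.205, 0.162 and 0.306 from TNE replicates 1 to 3, against 0.87 and 0.76 from TPIN replicates 1 and 2. TPIN replicates 1 and 2 differed from each other by 0.40. It lay nearer to the TNE mean than to the mean of the other TPIN arrays in 31 of the 40 genes (77.5%), against 39 of 66 mitochondrial genes (59.1%) and 44.6% of all genes. The same count over cytosolic genes was 11 for TPIN replicate 1 and 4 for TPIN replicate 2. For TNE replicates 1 to 3, 6, 8 and 9 of the 40 cytosolic genes lay nearer to the TPIN mean. Over the mitochondrial genes TNE replicate 3 lay nearer to the TPIN mean in 37 of 66 (56.1%, against 29.8% of all genes). The labels name no batch. Replicate numbers are not in the labels either. They follow the order of the samples in the series and pair nothing between the groups. Each title carries a numeric code of unstated meaning, and in numeric order TPIN replicates 1 and 2 have the highest codes, after the 3 TNE arrays and TPIN replicate 3, which is also how the arrays split in the cytosolic class. It is therefore not settled which TPIN arrays are the odd ones, and what the codes stand for was not tested.

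**Figure D1:**
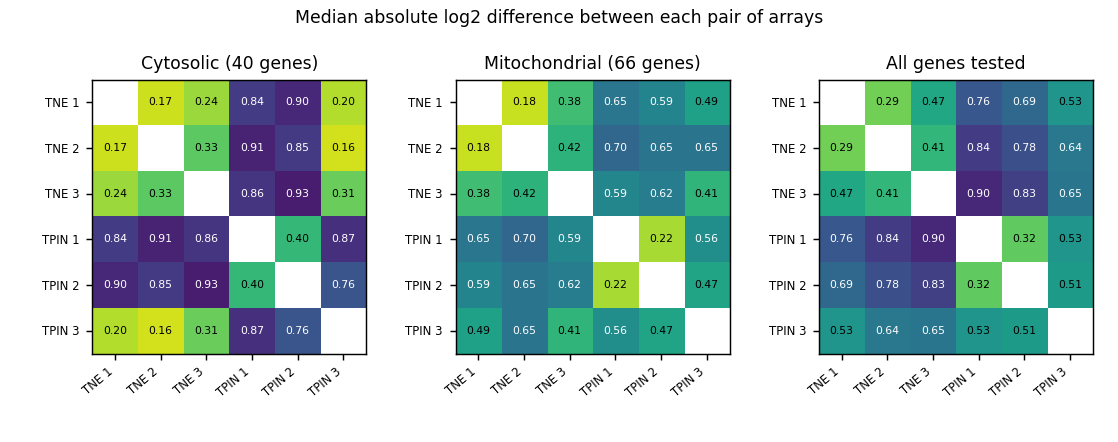
Median absolute difference in log2 expression between each pair of arrays, over the 40 cytosolic genes, the 66 mitochondrial genes and all 9490 genes tested; darker cells are larger differences. In the cytosolic panel TPIN replicate 3 sits with the 3 TNE arrays (0.205, 0.162 and 0.306), and in the panel of all genes its differences from TPIN replicates 1 and 2 (0.53 and 0.51) are close to its difference from TNE replicate 1 (0.53) and smaller than those from TNE replicates 2 and 3 (0.64 and 0.65).

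Marker genes moved strongly between the groups. Of 15 measured fibroblast and smooth muscle markers 11 fell in TNE (10.2% of all genes fell) and none rose, with list means of 7.65, 7.73 and 8.49 on the TNE arrays against 11.21, 11.38 and 11.51 on the TPIN arrays. Of 5 neuroendocrine markers Uchl1, Syt1 and Snap25 rose (10.3% of all genes rose), Ncam1 did not pass, and Eno2 had a log2 difference of -0.79 with the TNE arrays below the TPIN arrays (limma adjusted p = 0.110). Of 29 cell cycle genes 22 rose and none fell, with list means of 10.96, 11.28 and 11.17 in TNE cells against 8.47, 9.90 and 8.05 in TPIN cells. Of 4 prostate epithelial markers, Cd24a rose, Acpp (prostatic acid phosphatase) fell, and Krt8 and Krt18 did not pass. Of 4 endothelial markers Cdh5 rose and Eng and Cd34 fell, and neither leukocyte marker (Cd68, Cd14) passed. Their part in the ribosomal results was not tested, and in bulk cultures a change in the cells present and a change in RNA per cell cannot be told apart.

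The series compares TNE with TPIN cells. Against a background in which 20.5% of the 9490 genes passed (10.3% higher and 10.2% lower in TNE), few ribosomal protein genes did: 3 mitochondrial genes rose in TNE (4.55% of 66), no mitochondrial gene fell, and none of the 40 cytosolic genes passed (limma, Benjamini-Hochberg threshold 0.05 over all genes). At an unadjusted p under 0.05 the cytosolic counts were 4 higher and 4 lower in TNE, and the mitochondrial counts 21 higher and 1 lower. Among all genes 20.1% were higher and 18.8% lower at that level. The mitochondrial class leaned toward TNE, with 50 of 66 differences positive (75.8%, against 49.2% of all genes) and a median log2 difference of 0.37, which was 0.23 without TNE replicate 2 and 0.51 without TNE replicate 3. Cytosolic genes had 17 of 40 positive and a median of -0.19, which was 0.04 with the dimmest 25% of genes left out. The median over all genes was -0.02.

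**Figure D2:**
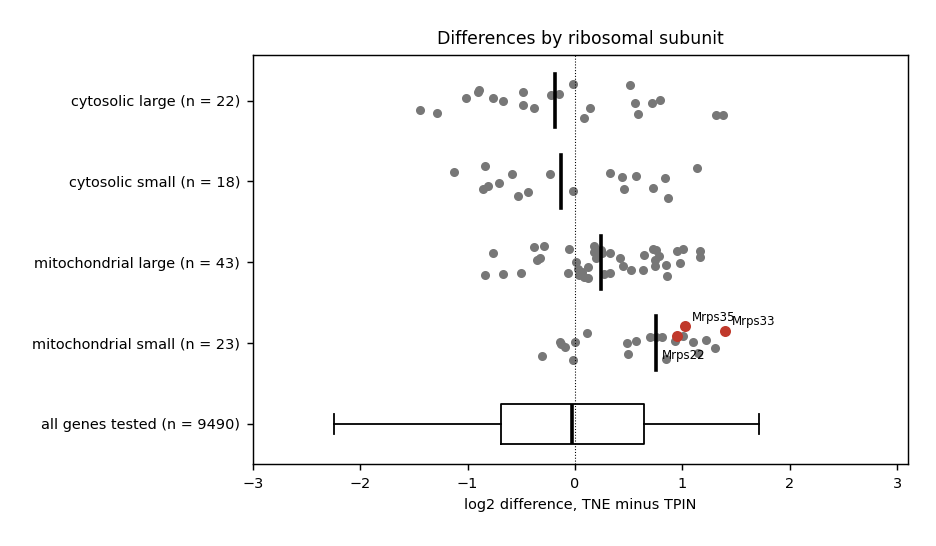
Log2 difference, TNE minus TPIN, of each ribosomal protein gene by subunit (points, red where past the threshold; thick bars are medians), with a box for all 9490 genes tested (quartiles, median and whiskers from the 5th to the 95th percentile). The mitochondrial small-subunit symbols, with a median of 0.75, holds the 3 called genes, and the cytosolic points spread to both sides of 0.

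The 3 called genes encode proteins of the mitochondrial small subunit that have no bacterial counterpart. Mrps33 had 10.88, 11.01 and 10.76 on the log2 scale in the TNE arrays, against 9.12, 9.36 and 9.98 in the TPIN arrays. It was 2.63-fold higher in TNE (log2 difference 1.40, SE 0.31, limma adjusted p = 0.0185). Its groups did not overlap, and TPIN replicate 3 was the nearest TPIN array.

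Mrps35 had 9.14, 8.96 and 8.86 in TNE cells, against 7.73, 7.85 and 8.31 in TPIN cells, and was 2.03-fold higher in TNE (log2 difference 1.02, SE 0.28, limma adjusted p = 0.0388). Mrps22 had 9.79, 10.01 and 9.56 in TNE cells, against 8.87, 8.96 and 8.69 in TPIN cells, and was 1.93-fold higher (log2 difference 0.95, SE 0.26, limma adjusted p = 0.0415). The 3 TNE arrays lay above the 3 TPIN arrays for both genes. In people, mutations of MRPS22 are a known cause of mitochondrial disease.

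None of the 3 calls held in each fit with 1 array left out. Mrps22 lost its call without any 1 of the 6 arrays (limma adjusted p = 0.0516 to 0.158). Mrps35 kept it without TPIN replicate 3 (0.0209) and lost it without any other array (0.0650 to 0.127). Mrps33 lost it without TNE replicate 2, TPIN replicate 1 or TPIN replicate 2 (0.0788, 0.0700 and 0.0640), and its log2 difference was between 1.22 and 1.64 with any 1 array left out. The count of mitochondrial genes that rose was 12 with TPIN replicate 3 left out, 3 with TNE replicate 3 left out, 1 with TNE replicate 1 left out, and 0 when TNE replicate 2, TPIN replicate 1 or TPIN replicate 2 was dropped. In the same fits, in that order, 27.4%, 14.0%, 18.2%, 8.77%, 9.86% and 11.7% of all genes passed, and 13.8%, 7.00%, 7.78%, 3.76%, 4.07% and 5.66% rose. With arrays centred on their medians 6 mitochondrial genes rose (10.6% of all genes), with quantile normalization once more 8 (12.2%), with the dimmest 25% of genes left out 5 (12.2%), and with array weights 28 (23.7% of all genes rose, 21.3% fell and 45.0% passed). With trend and robust variances (20.2% of all genes passed) and with the mean of rows (20.5%) the count was 3.

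The median difference was larger for the small than for the large subunit of the mitochondrial ribosome. The 23 small-subunit genes had a median log2 difference of 0.75, 17 positive, and for 12 the 3 TNE arrays lay above the 3 TPIN arrays, where 23.3% of all genes did so. Over the 43 large-subunit genes the median was 0.24, with 33 positive and 10 without overlap toward TNE (23.3%, the share among all genes). Bacterial counterparts were assigned by symbol number alone, Mrpl up to 36 and Mrps up to 21 being counted as having one. Single proteins were not checked, so the rule can misplace some of them. Among small-subunit symbols, with Mrps36 left out, the 11 counted as without a counterpart, Mrps30 among them, had a median of 0.94. The 11 counted as having one had 0.57. For the large subunit these medians were 0.25 (18 genes) and 0.20 (25 genes). These sets follow the symbols, and 3 of the 23 small-subunit symbols are not small-subunit proteins: Mrps30 and Mrps18a, whose products sit in the large subunit, and Mrps36. With subunits assigned by where the protein sits, chosen after seeing the data, the 20 small-subunit genes had a median of 0.80, with 15 positive and 11 without overlap toward TNE, and the 45 large-subunit genes 0.24, with 35 positive and 11 without overlap. The difference between these sets of genes was not tested.

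Next in p after the called small-subunit genes was Mrps31, at 10.41, 9.60 and 9.26 in TNE cells against 8.71, 8.53 and 8.61 in TPIN cells (log2 difference 1.14, SE 0.34, limma adjusted p = 0.0520). TNE replicate 1 was the high array, and the TPIN arrays lay close together below the TNE arrays. Mrps25 and Mrps14, a subunit without and a subunit with a bacterial counterpart, had log2 differences of 0.94 and 1.01 with no overlap between groups. Mrps30, whose protein sits in the large subunit despite its name, had 9.32, 9.09 and 8.69 in TNE cells against 8.09, 8.30 and 8.28 in TPIN cells (log2 difference 0.81, limma adjusted p = 0.0726). At the other end, Mrps6 varied within both groups, at 11.67, 10.71 and 9.65 in TNE cells against 10.30, 10.91 and 11.74 in TPIN cells.

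The 3 copies of bacterial S18 did not run together. Mrps18c had 10.78, 10.77 and 10.65 in TNE cells, against 8.54, 9.18 and 10.57 in TPIN cells (log2 difference 1.30, SE 0.49, limma adjusted p = 0.0928). It lay just under the TNE range in TPIN replicate 3 and far below it in TPIN replicates 1 and 2. Mrps18a, whose protein sits in the large subunit, and Mrps18b had log2 differences of 0.12 (95% interval -0.59 to 0.82) and -0.02 (-0.86 to 0.83), intervals that leave out a 2-fold change either way.

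In the large mitochondrial subunit Mrpl28 had groups with little spread: 9.63, 9.78 and 9.86 in TNE cells, against 9.03, 8.99 and 8.90 in TPIN cells (log2 difference 0.78, SE 0.25, limma adjusted p = 0.0591). Mrpl44, which carries an RNase III-like fold, had 9.16, 9.24 and 9.30 in TNE cells, against 7.72, 7.64 and 8.84 in TPIN cells (log2 difference 1.17, limma adjusted p = 0.0588). Mrpl41 had 9.44, 9.61 and 9.52 in TNE cells, against 8.24, 7.75 and 9.08 in TPIN cells (log2 difference 1.17, limma adjusted p = 0.0592). In both, TPIN replicate 3 was the TPIN array nearest TNE, and both passed without it (limma adjusted p = 0.0116 and 0.0153). Mrpl9 had a log2 difference of 0.95 (limma adjusted p = 0.0579) and passed without TPIN replicate 3 as well (0.0283). In that fit 27.4% of all genes passed and 13.8% rose. TPIN replicate 3 lay nearest TNE in Mrpl44, Mrpl41 and Mrpl9, so the p-values without it are no independent evidence.

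Negative differences were seen in 16 of the 66 mitochondrial genes, and none of them passed. Mrpl52 was the 1 member of the class whose TNE arrays all lay below the TPIN arrays, at 9.41, 9.16 and 9.38 against 10.14, 10.12 and 9.98 (log2 difference -0.76, limma adjusted p = 0.0641). It was picked after its values were seen. Mrpl33 had the largest negative difference in the class, at 7.50, 8.29 and 8.29 in TNE cells against 9.13, 9.23 and 8.25 in TPIN cells (log2 difference -0.84, limma adjusted p = 0.140). Its groups overlapped through TPIN replicate 3. For 21 mitochondrial genes the 95% interval of the difference lay within 1 log2 unit of 0, among them Mrpl4 (0.01), Mrpl54 (0.03), Mrpl13 (0.04) and Mrps10 (-0.10).

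**Figure D3:**
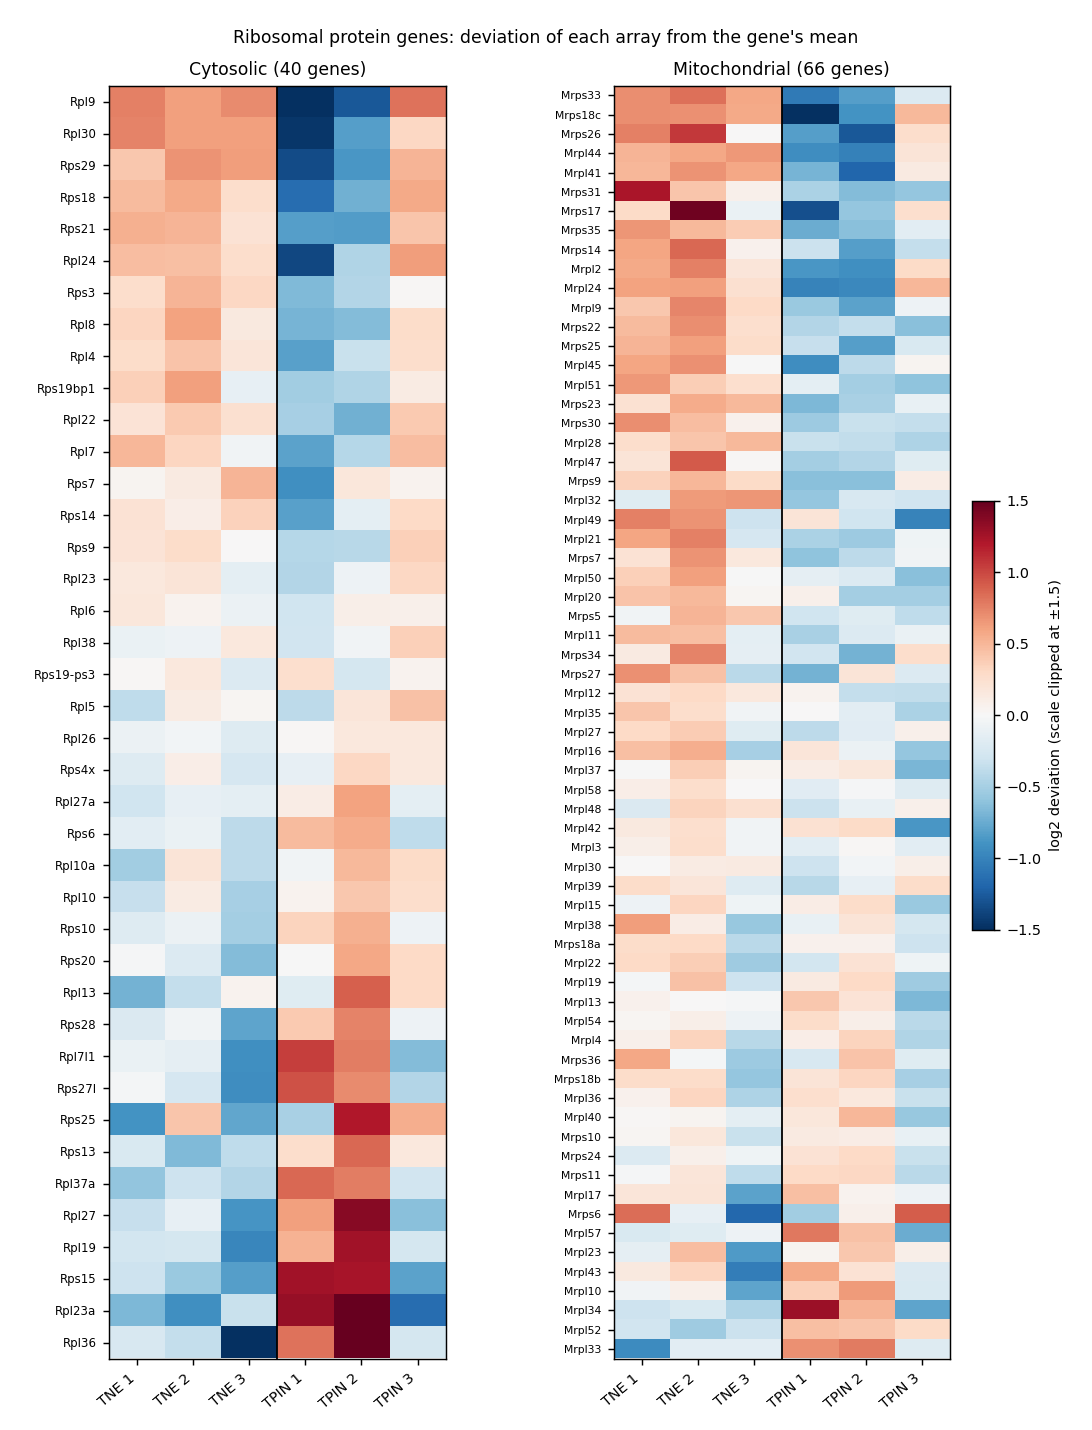
Deviation of each array from the gene's own mean (log2 colour scale, clipped at 1.5 either way) for the 40 cytosolic and 66 mitochondrial genes, ordered from the most positive to the most negative difference TNE minus TPIN. Among cytosolic genes TPIN replicates 1 and 2 hold the strongest colours at both ends while TPIN replicate 3 follows the TNE arrays; mitochondrial rows are mostly red in TNE replicates 1 and 2.

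Cytosolic genes spread to both sides and differed between arrays within TPIN. The median SD over the 40 genes was 0.20 in TNE and 0.55 in TPIN, and the TPIN SD was the larger in 36 of 40 genes (90.0%). Among all genes the medians were 0.33 in TNE and 0.39 in TPIN, and the TPIN SD was larger in 55.4%. Mitochondrial genes had medians of 0.29 in TNE and 0.35 in TPIN. The groups did not overlap in 7 of 40 cytosolic genes (17.5%) and in 23 of 66 mitochondrial genes (34.8%), against 43.8% of all genes.

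The cytosolic genes with the most positive differences were at similar levels in the 3 TNE arrays and TPIN replicate 3. Rpl9 had 11.80, 11.66 and 11.76 in TNE cells, against 9.45, 9.77 and 11.86 in TPIN cells (log2 difference 1.38, SE 0.59, limma adjusted p = 0.128). TPIN replicate 3 was the highest of all 6 arrays. Rps29, a zinc-binding protein of the small subunit, had 12.48, 12.75 and 12.71 in TNE cells, against 10.73, 11.20 and 12.59 in TPIN cells (log2 difference 1.14, SE 0.47, limma adjusted p = 0.116). Rpl30 had 10.22, 10.09 and 10.10 in TNE cells, against 8.02, 8.66 and 9.79 in TPIN cells (log2 difference 1.32, SE 0.44, limma adjusted p = 0.0696), and here the groups did not overlap. In each of these genes TPIN replicates 1 and 2 were more than 1 log2 unit below every TNE array.

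Rps3, which lines the mRNA entry channel, was steadier, at 12.18, 12.43 and 12.24 in TNE cells against 11.26, 11.49 and 11.94 in TPIN cells (log2 difference 0.72, SE 0.28, limma adjusted p = 0.102). Rps21 had 11.45, 11.43 and 11.13 in TNE cells, against 10.09, 10.08 and 11.33 in TPIN cells (log2 difference 0.84, limma adjusted p = 0.153). Rps3 and Rpl30 were the 2 cytosolic genes without overlap toward TNE (5% of 40, against 23.3% of all genes).

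Other cytosolic genes had the opposite sign with the same split in TPIN. Rps15, a small-subunit protein near the decoding site, had 11.09, 10.84 and 10.58 in TNE cells, against 12.66, 12.63 and 10.60 in TPIN cells (log2 difference -1.13, SE 0.55, limma adjusted p = 0.172). Rpl36 had 7.84, 7.71 and 6.51 in TNE cells, against 8.89, 9.68 and 7.81 in TPIN cells (log2 difference -1.44, SE 0.55, limma adjusted p = 0.0937). Rpl37a had 10.60, 10.89 and 10.76 in TNE cells, against 12.05, 11.97 and 10.90 in TPIN cells (log2 difference -0.89, SE 0.36, limma adjusted p = 0.111). In these 3 genes TPIN replicate 3 was within 0.1 of the nearest TNE array.

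Rpl19 had 9.64, 9.66 and 8.95 in TNE cells, against 10.44, 11.18 and 9.66 in TPIN cells (log2 difference -1.01, limma adjusted p = 0.125). Rps13 had 9.31, 8.88 and 9.16 in TNE cells, against 9.80, 10.41 and 9.70 in TPIN cells (log2 difference -0.85, SE 0.30, limma adjusted p = 0.0784), and all 3 TPIN arrays lay above the TNE arrays. Beside Rps13 and Rpl37a, the genes without overlap toward TPIN were Rpl26, Rps10 and Rps20, named after their values were seen, with log2 differences of -0.22, -0.53 and -0.58. These 5 genes made up 12.5% of the 40, against 20.5% of all genes.

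Without TPIN replicate 3 the cytosolic class gave calls in both directions: 9 genes rose and 8 fell in TNE (42.5% of 40), where 13.8% and 13.5% of all genes did. This array was described above because these same genes lay near the TNE levels on it, so leaving it out parts the groups in them by construction, and the p-values that follow are no independent evidence. Rpl9, Rpl30, Rps29 and Rps21 rose, by 2.13, 1.80, 1.68 and 1.25 on the log2 scale (limma adjusted p = 0.00669, 0.0134, 0.0134 and 0.0197), as did Rpl22, Rpl24, Rpl8, Rps18 and Rps3. Rps15, Rpl36, Rpl37a and Rpl19 fell, with log2 differences of -1.81, -1.93, -1.26 and -1.40 (limma adjusted p = 0.0115, 0.0383, 0.0182 and 0.0406), as did Rpl23a, Rpl27, Rpl7l1 and Rps27l. No cytosolic gene passed when any other array was left out, in fits where 8.77% to 18.2% of all genes passed.

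**Figure D4:**
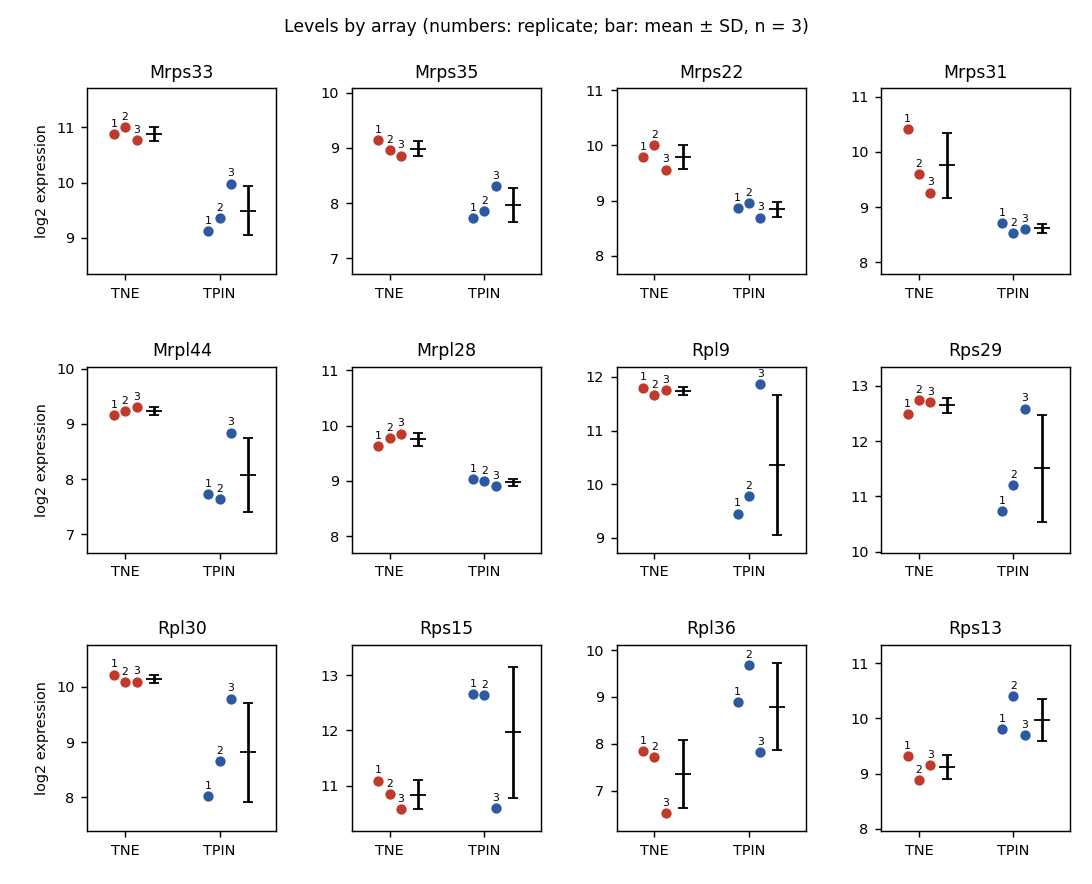
Log2 expression of 12 ribosomal protein genes on each array (points, numbered by replicate; bars are mean ± SD, n = 3), TNE in red and TPIN in blue, each panel with its own range. In the TPIN group replicate 3 lies with TNE for Rpl9, Rps29 and Rps15, while for Mrps22, Mrps31 and Mrpl28 the 3 TPIN arrays stay together below TNE.

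Paralogous copies could be set beside their parent in 1 case. Rpl7 had 11.43, 11.26 and 10.88 in TNE cells, against 10.13, 10.50 and 11.40 in TPIN cells (log2 difference 0.51, limma adjusted p = 0.344). Rpl7l1, its relative, had 10.68, 10.64 and 9.86 in TNE cells, against 11.81, 11.55 and 10.12 in TPIN cells (log2 difference -0.77, limma adjusted p = 0.269). The signs were opposite, and neither passed. Rps27l, a copy of Rps27 known as a p53 target, had 10.92, 10.69 and 10.01 in TNE cells, against 11.90, 11.65 and 10.50 in TPIN cells (log2 difference -0.81, limma adjusted p = 0.205).

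For 7 cytosolic genes the 95% interval lay within 1 log2 unit of 0: Rpl26, Rpl5, Rpl23, Rpl6, Rpl38, Rps4x and Rps19-ps3. Rpl6 and Rpl38 had log2 differences of 0.09 and -0.02. Rpl5 had values of 4.05, 4.56 and 4.46 in TNE and 4.04, 4.61 and 4.87 in TPIN, and with Rpl36, Rpl23a, Rpl13, Rpl10a and Rps25 it was among the 6 cytosolic rows in the dimmest 25% of the table. RMA narrows differences near background, so the interval of Rpl5 says little about that gene. For the remaining 33 cytosolic genes neither equality nor a 2-fold change can be told from these arrays. Rows shared by several symbols, 39 of which include a cytosolic ribosomal protein, had a median difference of -0.08, and none of them passed.

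Averaged over each class, the arrays can be set side by side. The mean deviation of the 66 mitochondrial genes from their own means was 0.27, 0.40 and -0.08 in TNE replicates 1 to 3, against -0.21, -0.17 and -0.21 in TPIN replicates 1 to 3. For the 40 cytosolic genes it was -0.02, 0.09 and -0.20 in TNE cells, against -0.17, 0.21 and 0.09 in TPIN cells. TNE replicate 3, whose median over all genes was the lowest of the 6 (8.83, against 8.99 to 9.12 on the others), was also the lowest TNE array in both classes. The mitochondrial mean minus the cytosolic mean, taken within each array, was 0.29, 0.31 and 0.11 in TNE cells, against -0.03, -0.38 and -0.31 in TPIN cells. The groups did not overlap in this quantity, which was not tested, and 43.8% of all genes had groups that did not overlap either.

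**Figure D5:**
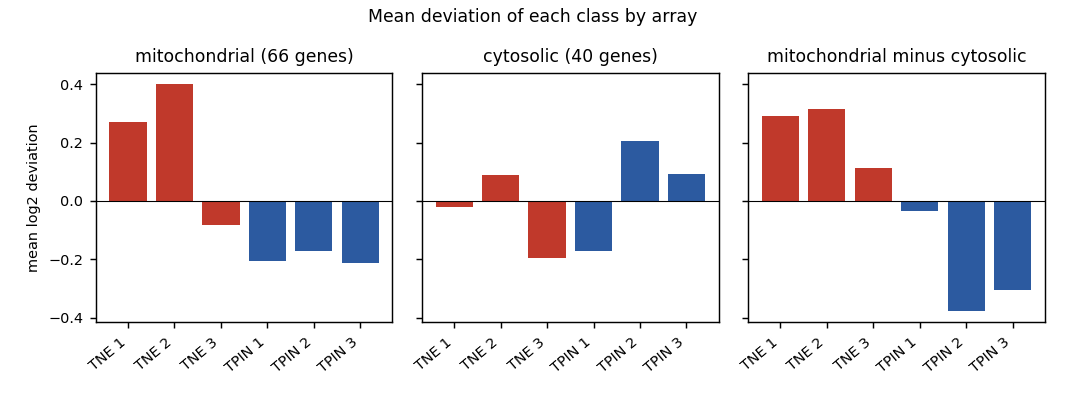
Mean log2 deviation of the mitochondrial class, the cytosolic class and their difference on each array (bars; TNE in red, TPIN in blue). The difference is positive on the 3 TNE arrays (0.11 to 0.31) and negative on the 3 TPIN arrays (-0.38 to -0.03), while the cytosolic bars mix between the groups.

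Genes that build and run the ribosomes were read from lists. Of 95 measured nucleolar assembly factors, which process rRNA and fit it with ribosomal proteins, 16 rose in TNE (10.3% of all genes rose) and none fell, 87 had a positive difference and the median was 0.57. Wdr12, a partner of PES1 and BOP1 in large-subunit assembly, had 10.36, 10.33 and 9.96 in TNE cells, against 8.82, 8.82 and 8.82 in TPIN cells (log2 difference 1.39, limma adjusted p = 0.0102). Nhp2 and Nop58, parts of the small nucleolar RNPs that modify rRNA, Mdn1, an ATPase that strips assembly factors, and Utp6, of the small-subunit processome, had log2 differences of 1.62, 1.64, 1.32 and 1.48 (limma adjusted p = 0.0119 to 0.0234). With TNE replicate 1 left out 5 rose, with TNE replicate 2 left out 1, with TPIN replicate 1 left out 3, with TPIN replicate 2 left out 4, and with TPIN replicate 3 left out 28 (7.78%, 3.76%, 4.07%, 5.66% and 13.8% of all genes rose in these fits). Cell cycle genes, listed above, had a median difference of 2.41 between the same arrays.

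The 10 measured genes of RNA polymerase I and its factors, which transcribe rRNA, had positive differences with a median of 0.71, and none passed (10.3% of all genes rose). Taf1d had the smallest p (log2 difference 1.23, limma adjusted p = 0.0542) and passed without TPIN replicate 3 (0.0196). Polr1e passed without TNE replicate 3 (0.0471). In these fits 13.8% and 7.00% of all genes rose. The array left out was in each case the one of its group nearest the other group, so these p-values are no independent evidence.

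On the mitochondrial side, 2 of 15 ribosome assembly factors rose, a share near the 10.3% of all genes that rose, and none fell, with a median of 0.57 and 14 positive (49.2% of all genes were). Dhx30 and Fastkd2, RNA-binding proteins of mitochondrial RNA granules, had log2 differences of 0.90 and 1.08 (limma adjusted p = 0.0395 and 0.0398). The count was 0 without TNE replicate 1, TNE replicate 2, TPIN replicate 1 or TPIN replicate 2 (7.78%, 3.76%, 4.07% and 5.66% of all genes rose), and 1 without TNE replicate 3 (7.00%). Of 11 translation factors and mRNA regulators 3 rose (10.3% of all genes) and none fell, with a median of 0.71: the initiation factor Mtif2, the mRNA-stabilising Lrpprc and the elongation factor Gfm1 had log2 differences of 1.15, 1.23 and 1.25 (limma adjusted p = 0.0248, 0.0296 and 0.0307). That count was 0 without the same 4 arrays and 5 without TPIN replicate 3 (13.8% of all genes rose).

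Of 8 genes that copy and transcribe mitochondrial DNA, 2 rose (10.3% of all genes rose) and none fell. Tfam, which packages mitochondrial DNA, had 9.59, 10.06 and 9.74 in TNE cells, against 7.90, 8.07 and 8.66 in TPIN cells (log2 difference 1.58, limma adjusted p = 0.0120). Ssbp1, the single-strand binding protein, had a log2 difference of 1.46 (limma adjusted p = 0.0133). With TNE replicate 2 left out none rose (3.76% of all genes did), and with TPIN replicate 1 left out 1 did (4.07%). The TNE arrays lay above the TPIN arrays for both genes.

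Of 18 Myc and mTOR regulators of ribosome production, 1 rose and none fell, a count below the 10.3% of all genes that rose, with 9 positive (49.2% of all genes were) and a median of 0.01. Mxd3, a partner of MAX, rose (log2 difference 1.35, limma adjusted p = 0.0144), and the count was 0 without TNE replicate 2 or TPIN replicate 1 (3.76% and 4.07% of all genes rose) and 2 without TNE replicate 1 (7.78%). Mycn, an activator of ribosomal genes, had 7.29, 11.98 and 10.99 in TNE cells, against 7.80, 7.96 and 7.83 in TPIN cells (log2 difference 2.22, limma adjusted p = 0.157). TNE replicate 1 was the lowest of all 6 arrays and the other TNE arrays were the highest, and without TNE replicate 1 Mycn passed (limma adjusted p = 0.00290). Leaving out the array that departs in Mycn itself parts the groups by construction, so that p-value is no independent evidence. Myc had the opposite sign, at 10.3, 9.9 and 7.1 in TNE cells against 9.3, 11.1 and 9.3 in TPIN cells. Its log2 difference was -0.82 (limma adjusted p = 0.507). Nrf1, Mnt and Mycl had log2 differences of 0.69, -0.49 and 0.50 (limma adjusted p = 0.103, 0.200 and 0.205). Without TPIN replicate 3, 1 gene of this list fell (13.5% of all genes did).

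Among ribosomal subunits that the naming pattern misses, none of 6 passed. Rpsa, a small-subunit protein also known as the laminin receptor, had 10.62, 10.67 and 10.61 in TNE cells, against 9.45, 9.86 and 10.19 in TPIN cells (log2 difference 0.80, limma adjusted p = 0.0799), and passed without TPIN replicate 3 (0.0374). Fau, the other cytosolic gene, had a log2 difference of -0.34 (limma adjusted p = 0.454). Of the 4 mitochondrial ones, Ptcd3 had 0.95 (limma adjusted p = 0.0605) and Gadd45gip1, at -0.91, fell without TPIN replicate 3 (0.0218). Without that array 13.8% of all genes rose and 13.5% fell. It was the TPIN array nearest TNE in Rpsa and Gadd45gip1, so the p-values without it are no independent evidence.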

How the data were processed

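Expression was read from 6 arrays of 1 colour, 3 TNE and 3 TPIN. The deposited log2 values were made by the authors with RMA, per the submitters' processing notes, with no version named there. RMA brings arrays to a shared distribution and narrows differences near background. The table of 10361 rows holds part of the array by a rule not given here, with no detection call, and the number of arrays limits the precision. Rows with 1 symbol gave 9490 genes (the row of highest mean per gene, and each ribosomal protein gene had 1 row). All 106 member identifiers matched RefSeq.

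TNE minus TPIN was fitted over all genes with limma 3.58.1 in R 4.3.3 (empirical Bayes, two-sided, Benjamini-Hochberg threshold 0.05) and tested on simulated data. Class medians and means are descriptions with no p. No array pair held duplicate data (at most 0.106% identical values). Labels do not say whether replicates are separate mice or cultures, so p-values measure only the spread between samples, which may be technical. One label field gives the TPIN lesion for every sample, TNE included, so groups follow titles and the cell type field.

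The members and lists were chosen with earlier results of these data known. The rule for naming took members past the threshold, and in each subunit the 4 of smallest p and the largest difference each way. It also took paralogs with their parents, and up to 5 genes of smallest p per list. Not all of these list genes are named, and those given were picked with their values known. Other genes named were chosen after their values were seen. Alternatives left out each array, centred or quantile-normalized arrays again, dropped the dimmest 25% of genes, used trend and robust variances, array weights or the mean of rows, and, chosen after seeing the data, left out 4 symbols that are no subunits, added rows of several symbols or assigned mitochondrial subunits by where the protein sits.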

Additional observations from a re-analysis of the deposited data

How the results depend on the processing

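Cytosolic calls were 0 higher and 0 lower in TNE except without TPIN replicate 3 (leaving out each array in turn gave 0 to 9 higher and 0 to 8 lower) and with array weights (12 and 8), which gave TPIN replicate 3 the lowest weight, 0.345. Mitochondrial calls higher in TNE were 3, ranged from 0 to 12 with 1 array left out, and were 6 with arrays centred on their medians, 8 with quantile normalization once more, 5 with the dimmest 25% left out and 28 with array weights. Mitochondrial calls lower in TNE were 0, from 0 to 1 with 1 array left out, and 2 with array weights. Under array weights 45.0% of all genes passed. The causes were not tested. The cytosolic median of -0.19 was 0.0353 with the dimmest 25% left out, and the mitochondrial median of 0.37 ranged from 0.233 to 0.509 with 1 array left out. Each single shift from 0.37 was smaller than the pooled SD of the mitochondrial class mean between replicates (0.1775). Trend and robust variances, the mean of rows, leaving out the 4 symbols that are no subunits and adding rows of several symbols left the class counts at 0, 0, 3 and 0. Mrps6 changed sign without TNE replicate 3 (0.21), without TPIN replicate 3 (0.07) and with array weights (0.00446), and ranged from -0.7992 to 0.2083 with 1 array left out. Dap3 changed sign without TNE replicate 3 and ranged from -0.4852 to 0.0105. Of 275 values under alternatives, 222 kept their direction and side of the threshold, 14 lost the call, 36 gained it and 3 changed sign. They cover the members named by the rule, not those named after their values were seen. No paired analysis was possible because the labels carry no replicate numbers and name no pairing.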
